A study of Mus musculus with 48 samples.

Results

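Levels of 4 structural RNAs were examined in the livers of mice under timed sleep restriction (TSR, labelled SR) and of undisturbed control mice. They were Rnu2-10 (probe set 10347220), Vaultrc5 (10455015), Rprl1 (10545192) and Rn18s (10445185), 4 of the 21360 genes named on the array and 4 of its 28815 probe sets. The 4 RNAs were chosen by their symbol and selected on earlier results for the same liver arrays, so their liver levels are described here without a test. The mice were males of the strain labelled Bl6J, aged 10 to 12 weeks. The TSR schedule used gentle handling to keep the mice awake from ZT0 (lights on) to ZT6 on 5 days, and after 2 free days on 5 more. Killing began, by the study's methods, on the evening before the last of these days, so the mice killed first did not go through that day. Time point and number of restriction days thus cannot be told apart. Control mice were not handled in this way. Each of ZT1, ZT7, ZT13 and ZT19 had 3 TSR and 3 control livers, on 24 Affymetrix Mouse Gene 1.0 ST arrays, and 24 more arrays, laid out alike, carry the label epididymal white adipose tissue (WAT). By the study's methods both tissues were collected from the mice killed at each time point, but no label ties a given liver array to a WAT-labelled one.

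U2 is one of the small nuclear RNAs of the spliceosome, and it pairs with the branch site of introns. Vault RNAs are short RNA polymerase III transcripts bound to vaults, large cytoplasmic particles made mainly of the major vault protein. RNase P is an RNA enzyme that trims the leader from precursor tRNAs, and Rprl1 is named as a relative of its RNA. The RNA of the small ribosomal subunit, 18S, is cut from a long RNA polymerase I transcript and makes up much of the mass of any total RNA preparation. None of these RNAs is polyadenylated in the way of a messenger RNA, and all are held in stable particles with proteins. Their array signal can follow the way RNA was prepared and labelled as well as their amount in the cell, so values that bear on the RNA preparation are given beside the levels.

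The values are fluorescence signals normalized by the authors, on a linear scale and with no unit, and levels are compared between arrays and never between probe sets. All 4 probe sets had a detection p of 0.05 or less on each of the 24 liver arrays. Hepatocyte markers were high in every liver array, with a median log2 signal of 13.09 to 13.32 in TSR and 13.04 to 13.23 in control arrays. Whole livers were used, so fewer cells of a type and less RNA per cell cannot be told apart. Of the 24 liver arrays, 5 stood apart, namely TSR ZT1 replicate 3, control ZT7 replicate 3 and control ZT19 replicates 1 to 3. Over the 14373 tested probe sets outside the RNA lists described below, deviations from the mean of all arrays were compared. Those of these 5 arrays correlated with each other at 0.56 to 0.90, and with those of the other 19 arrays at -0.69 to 0.33. Those of the other 19 arrays correlated with each other at -0.66 to 0.68, a range that overlaps with that among the 5. TSR ZT19 replicate 3 carried pancreatic transcripts: 10 pancreatic acinar markers summed to a signal of 8574 there, against at most 741 in any control array. TSR ZT13 replicate 3 (1045) and TSR ZT13 replicate 1 (826) also exceeded every control array. The labels number the TSR liver arrays 1 to 12 and the control liver arrays 37 to 48, so the numbering block and the treatment cannot be told apart.

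Rnu2-10 was higher in TSR livers at every time point. At ZT1 its signal was 232.8, 172.3 and 151.7 in TSR livers and 117.2, 112.4 and 108.6 in control livers. At ZT7 it was 557.7, 428.7 and 753.1 in TSR livers, against 98.4, 155.3 and 72.6 in control livers. At ZT13 TSR livers had 555.8, 227.4 and 945.9, and control livers had 141.5, 68.0 and 115.8. At each of these times the TSR and control arrays did not overlap, and neither did they at ZT19. There TSR livers had 191.2, 160.3 and 1777, and control livers had 82.3, 50.3 and 55.1. The value of 1777 belongs to TSR ZT19 replicate 3, the array with the highest pancreatic markers, and was the highest of all 24, while the other TSR livers of ZT19 lay close to those of ZT1. The second highest, 945.9, belongs to TSR ZT13 replicate 3, whose pancreatic marker sum of 1045 was also the second highest. Below these the order differed. TSR ZT7 replicate 3, at 753.1, had a sum of 724, and control ZT1 replicate 2, at 112.4, had a sum of 741. Whether Rnu2-10 and the pancreatic markers are linked was not tested. Across time points the treatments overlapped, since the set-apart array TSR ZT1 replicate 3, at 151.7, lay below the highest control array, at 155.3.

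The mean log2 difference of Rnu2-10, TSR minus control, was 2.01 ± 0.35 (SE, 12 arrays against 12), or 4.02-fold. The ZT1 difference was 0.70, followed by 2.45 at ZT7, 2.25 at ZT13 and 2.63 at ZT19, with an SE of 0.70 each. Without TSR ZT19 replicate 3 the ZT19 difference was 1.52 ± 0.48, or 2.86-fold in place of 6.20-fold, and the mean difference was 1.73 ± 0.22. Without the 5 set-apart arrays, which leaves no control array at ZT19, the mean over the other time points was 1.76 ± 0.49.

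**Figure D1:**
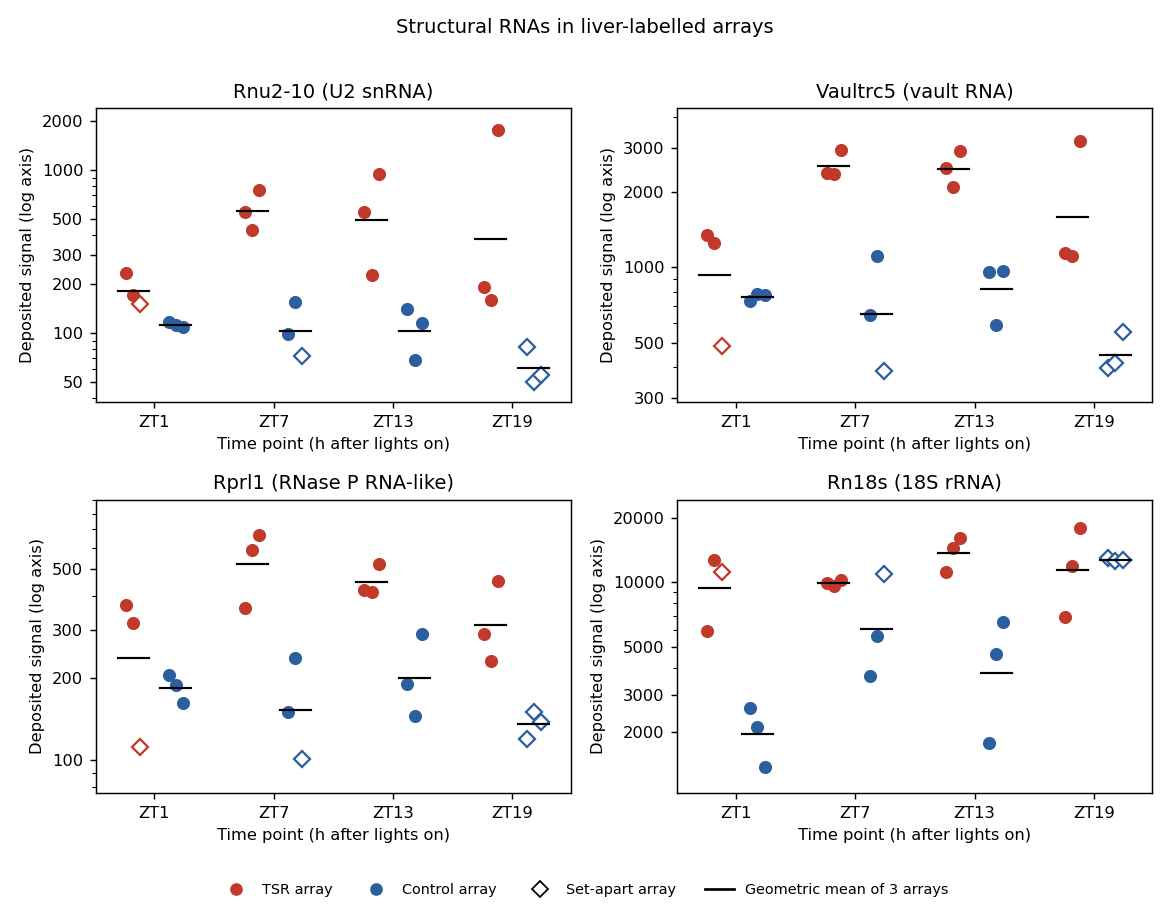
Deposited signal (log axis) of Rnu2-10, Vaultrc5, Rprl1 and Rn18s in each of the 24 liver arrays by time point, with TSR arrays in red left of control arrays in blue. Open diamonds are the 5 set-apart arrays and black lines are geometric means of 3 arrays. The 5 diamonds lie low in Vaultrc5 and Rprl1 and high in Rn18s, where they span 10949 to 12931.

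Vaultrc5, the vault RNA, followed the same course. At ZT1 its signal was 1345, 1247 and 482.8 in TSR livers and 730.4, 782.8 and 777.0 in control livers. The lowest of these TSR values came from the set-apart array, so that the groups overlapped. At ZT7 TSR livers had 2389, 2355 and 2950, against 644.5, 1107 and 385.7 in control livers. At ZT13 TSR livers had 2493, 2096 and 2915, against 962.0, 587.8 and 968.0 in control livers. At ZT19 TSR livers had 1138, 1113 and 3205, and control livers had 394.9, 413.2 and 549.1. From ZT7 on, every TSR array lay above every control array of its time point. The highest value, 3205, again belonged to the array with pancreatic transcripts.

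The mean difference of Vaultrc5 was 1.42 ± 0.22 on the log2 scale (SE), or 2.68-fold. The ZT1 difference was 0.29, followed by 1.97 at ZT7, 1.60 at ZT13 and 1.83 at ZT19, with an SE of 0.44 each. Without the 5 set-apart arrays the ZT1 difference was 0.76 ± 0.40 and the mean 1.32 ± 0.23. Among the 19 other arrays the signal was 1113 to 3205 in TSR and 587.8 to 1107 in control arrays, so the ranges nearly met. The share of all probe sets that were apart in these 19 arrays is not given here, so nothing is read from this. The transcripts of the vault protein genes did not pass the test, and protein was not measured. Mvp, the major vault protein, differed by 0.08 (SE 0.03, limma adjusted p = 0.129 over 14407 probe sets). Tep1, a vault protein shared with telomerase, differed by -0.06 (adjusted p = 0.428), and Parp4, the vault poly(ADP-ribose) polymerase, by -0.02 (adjusted p = 0.794). Tep1 was detected on none of the 24 arrays and Parp4 on 16.

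Rprl1, the RNase P RNA relative, was likewise higher in TSR livers from ZT7 on. At ZT1 its signal was 370.0, 318.5 and 111.3 in TSR livers and 205.6, 189.0 and 161.3 in control livers, where the set-apart TSR array was again the lowest. At ZT7 TSR livers had 361.3, 589.4 and 667.0, against 150.4, 236.3 and 100.8 in control livers. At ZT13 TSR livers had 420.5, 412.8 and 521.0, against 190.6, 144.9 and 290.3 in control livers. At ZT19 TSR livers had 291.0, 231.5 and 454.0, and control livers had 119.2, 150.1 and 138.5. The groups overlapped at ZT1 and at no other time point. The mean log2 difference was 1.12 ± 0.21 (SE), or 2.18-fold. The ZT1 difference was 0.35, followed by 1.77 at ZT7, 1.17 at ZT13 and 1.21 at ZT19 (SE 0.42 each). Without the 5 set-apart arrays the ZT1 difference was 0.90 in place of 0.35.

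Rn18s took a different course, with its widest range in the control livers. At ZT1 its signal was 5928, 12747 and 11132 in TSR livers and 2598, 2113 and 1385 in control livers. At ZT7 TSR livers had 9971, 9579 and 10220, against 3674, 5634 and 10949 in control livers. At ZT13 TSR livers had 11141, 14547 and 16089, against 1777, 4615 and 6537 in control livers. At ZT19 TSR livers had 6933, 11930 and 18023, and control livers had 12931, 12650 and 12748. The groups were apart at ZT1 and ZT13 and overlapped at ZT7 and ZT19. The 4 set-apart control arrays, at 10949 to 12931, were the 4 highest control values, and the other 8 control arrays ranged between 1385 and 6537. The value of 18023 in the array with pancreatic transcripts was the highest of the 24.

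The mean difference of Rn18s was 1.17 ± 0.24 on the log2 scale (SE), or 2.25-fold. The ZT1 difference was 2.26, followed by 0.70 at ZT7, 1.87 at ZT13 and -0.16 at ZT19, with an SE of 0.47 each. Without the 5 set-apart arrays the mean over ZT1, ZT7 and ZT13 was 1.71 ± 0.30, or 3.28-fold. Within control livers Rn18s was 6.50-fold higher at ZT19 than at ZT1, the widest span over time among the 4 RNAs, and all control arrays of ZT19 are set-apart arrays. In TSR livers its highest mean, at ZT13, was 1.46-fold its lowest, at ZT1.

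Counts of this kind are frequent on these arrays. Over all 14407 probe sets with a mean signal above the median, every TSR array lay above every control array in 16% at ZT1, then 22.1% at ZT7, 18.7% at ZT13 and 23.9% at ZT19. Of the 4 RNAs, ZT1 had 2 (Rnu2-10 and Rn18s), ZT7 had 3, ZT13 had all 4 and ZT19 had 3. Over the whole design all 12 TSR arrays exceeded all 12 control arrays in 0.187% of the probe sets, and in none of the 4. Since the liver contrast chose the 4 RNAs, nothing is read from these counts.

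The means of Rnu2-10 in TSR livers were, in order of level, 709.5 (ZT19, SD 924.6), 579.8 (ZT7), 576.3 (ZT13) and 185.6 (ZT1), and each group overlapped with the next. In control livers its means were 112.7 (ZT1), 108.8 (ZT7), 108.4 (ZT13) and 62.6 (ZT19), also overlapping, and only TSR ZT1 and control ZT1 were neighbours whose arrays did not overlap. Vaultrc5 and Rprl1 shared another order, with TSR ZT7, ZT13, ZT19 and ZT1 above control ZT13, ZT1, ZT7 and ZT19, and each group overlapped with the next. Rn18s was highest in TSR livers of ZT13 (mean 13926) and lowest in control livers of ZT1 (2032), with control ZT19 (12776.5) in second place.

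**Figure D2:**
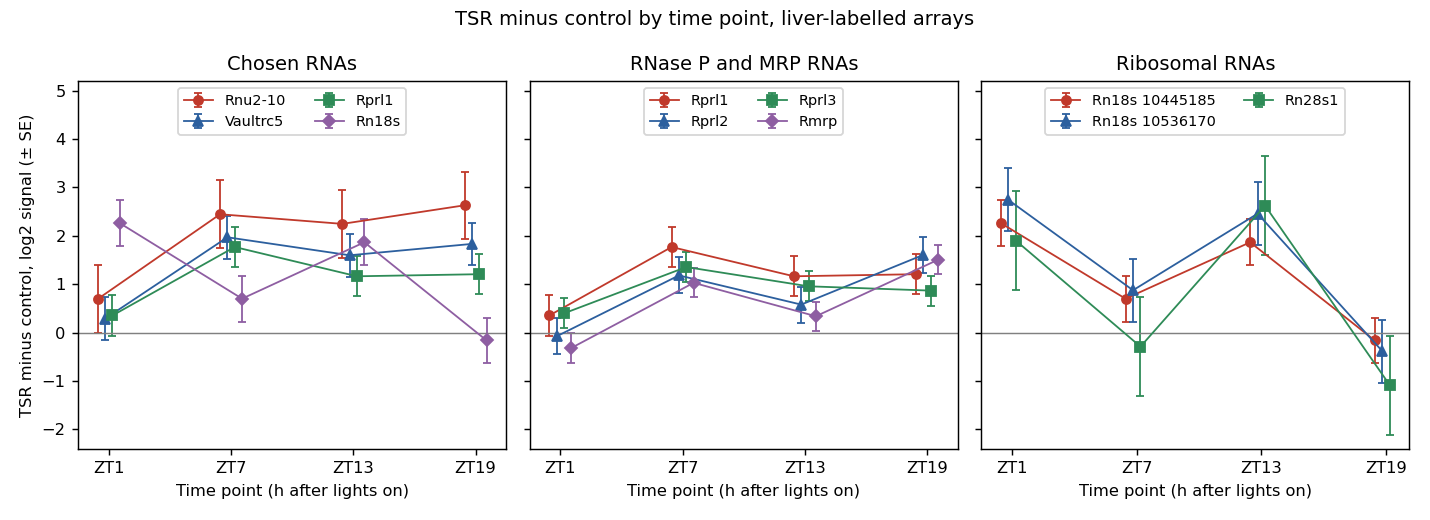
TSR minus control on the log2 signal scale (± SE) at ZT1, ZT7, ZT13 and ZT19 in liver arrays, for the 4 chosen RNAs (left), the RNase P and RNase MRP RNAs (middle) and the ribosomal RNAs (right). Rnu2-10, Vaultrc5 and Rprl1 are nearest to 0 at ZT1, and both Rn18s probe sets are below 0 at ZT19.

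Arrays high in Vaultrc5 tended to be high in Rnu2-10 and Rprl1. Correlations are given as a description with no test, since the liver levels chose the RNAs and the arrays share treatment and time point. Outside the 5 set-apart arrays, Rnu2-10 and Vaultrc5 correlated at r = 0.91 (rho = 0.96) over 11 TSR arrays and at r = 0.89 (rho = 0.81) over 8 control arrays. Vaultrc5 and Rprl1 gave r = 0.83 (rho = 0.83) in TSR and r = 0.80 (rho = 0.83) in control arrays. Rnu2-10 and Rprl1 gave r = 0.69 (rho = 0.76) in TSR and r = 0.64 (rho = 0.83) in control arrays, and without the 2 arrays farthest from the median of Rnu2-10 these r values were 0.73 and 0.37.

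Deviations from the mean of each group take out treatment and time point. Over the same 19 arrays in 7 groups, those of Rnu2-10 and Vaultrc5 correlated at 0.93, those of Vaultrc5 and Rprl1 at 0.77 and those of Rnu2-10 and Rprl1 at 0.65. Over all 24 arrays the 3 values were 0.75, 0.87 and 0.52. For Rn18s the deviations correlated with those of the other RNAs at 0.25 to 0.39 over the 19 arrays and at -0.06 to 0.12 over all 24. In the 5 set-apart arrays Vaultrc5 lay between 385.7 and 549.1, below every other array, while Rn18s lay between 10949 and 12931, in the range of the other TSR arrays.

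**Figure D3:**
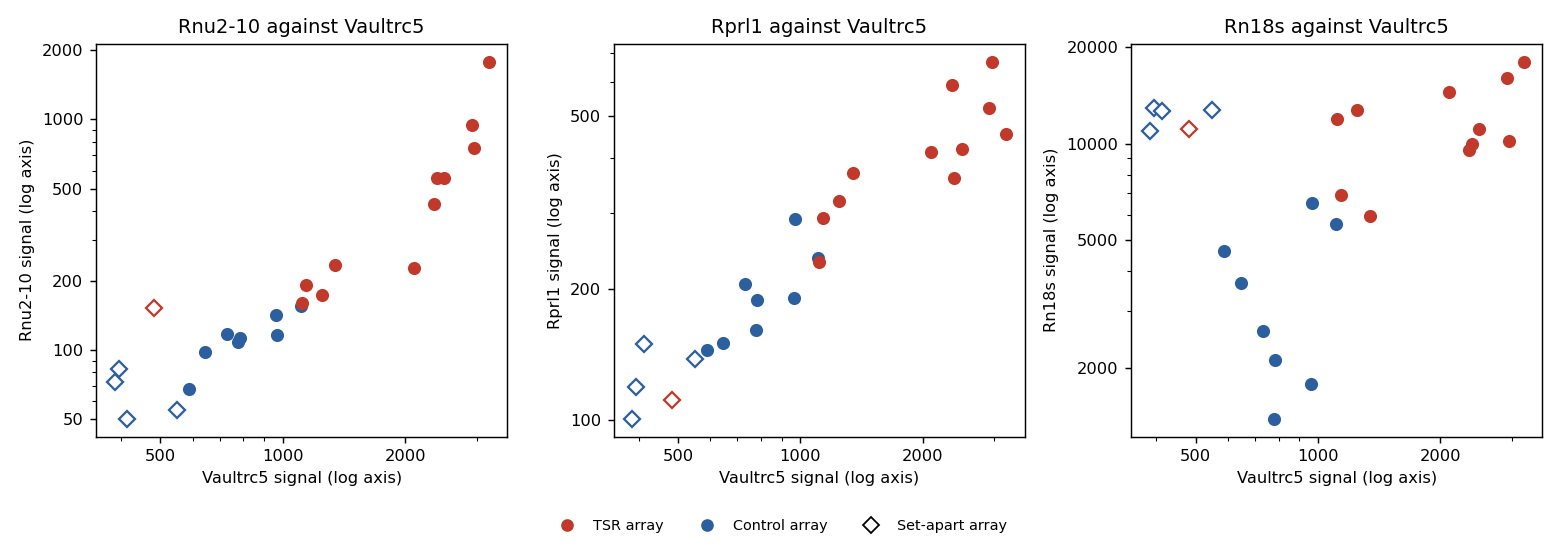
Signals (log axes) of Rnu2-10, Rprl1 and Rn18s against Vaultrc5 in the 24 liver arrays, TSR in red and control in blue, with the 5 set-apart arrays as open diamonds. Rnu2-10 and Rprl1 follow Vaultrc5 within both treatments, with r of 0.80 to 0.91 outside the diamonds. The diamonds lie at high Rn18s and low Vaultrc5.

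Further probe sets bear on whether the signals are those of single genes. The array carries 3 more probe sets for U2, with the same 24 liver values as 10347220, so in liver they are 1 measurement and U2 copies cannot be separated. Of these, 10347222 had slightly other values in the WAT-labelled arrays, with 651.3 as its highest control value against 619.7 for 10347220. A second Rn18s probe set, 10536170, gave a difference of 1.42 ± 0.33 (SE) and correlated with the first at 0.99 over the 24 arrays. Rn28s1, the RNA of the large ribosomal subunit, ranged between 1043 and 17527 in TSR and between 615.1 and 7317 in control livers. Its difference of 0.79 ± 0.51 did not pass the test (limma adjusted p = 0.212), and without the 5 set-apart arrays it was 1.48 ± 0.57 (adjusted p = 0.0413). Rnu1b1, a U1 RNA of the spliceosome, has 8 probe sets in 2 sets of identical values, which rose by 0.39 (adjusted p = 0.00756) and 0.24 (adjusted p = 0.0434), the second no longer passing without the 5 set-apart arrays (adjusted p = 0.0706). Rnu7, the U7 RNA of histone mRNA processing, differed by -0.10 (adjusted p = 0.493).

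The other RNAs of RNase P and RNase MRP rose with Rprl1. All 3 tested rose on average over the day, against 16% of all probe sets that rose and 12.2% that fell (adjusted p under 0.05 from limma, 12 arrays against 12). That split of 2307 higher and 1759 lower depends on scaling, with 1673 and 2446 after quantile normalization and 933 and 2523 with each array centred on its median, while all 3 RNAs still rose under centring. Their median difference was 0.82, against 0.03 over all probe sets tested. Rprl3 differed by 0.90 ± 0.16 (adjusted p = 0.000310), Rprl2 by 0.82 ± 0.19 (adjusted p = 0.00186) and Rmrp, the RNA of RNase MRP, which cuts ribosomal RNA precursors, by 0.64 ± 0.15 (adjusted p = 0.00275). The probes of the Rprl genes may read each other's RNA, so the 3 Rprl values need not be independent. Without the 5 set-apart arrays all 3 RNAs still passed, at 0.98, 0.61 and 0.37, against 15.7% of all probe sets rising and 10.4% falling.

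Rmrp is given in single arrays because its effect differed between time points. At ZT1 it was 2736, 2137 and 1069 in TSR livers, against 2370, 2596 and 1958 in control livers. At ZT19 it was 2635, 2416 and 2719 in TSR livers, against 919.9, 918.0 and 890.8 in control livers. The low values, near 1000, are again those of set-apart arrays. At ZT7 it was 3143, 3449 and 3341 in TSR livers, against 1879, 2256 and 1004 in control livers, so that all TSR arrays lay above the control arrays with or without the set-apart one. By time point, 4 of 17 tested probe sets for other non-coding RNAs rose at ZT1, against 1.47% of all probe sets. At ZT7 5 rose and 2 fell, against 8.90% rising, at ZT13 5 rose, against 9.95%, and at ZT19 5 rose, against 10.5%. The share of all probe sets falling at ZT7 is not given here, so nothing is read from the 2 that fell. Rprl2, Rprl3 and Rmrp were among those of ZT7 and ZT19, and Rprl3 among those of ZT13. The 4 of ZT1 were Malat1, 2 probe sets of Gas5 and 1 of Snhg1, which are long RNAs outside the RNase P family.

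Other small RNAs are grouped by a list headed RNA polymerase III transcripts. Rny3, a Y RNA bound by the Ro protein, had signals of 1349 to 4686 in TSR and 1056 to 1501 in control livers, and it differed by 0.73 ± 0.15 (adjusted p = 0.00118). Terc, the telomerase RNA, which is made by RNA polymerase II in mammals, had 98.5 to 329.0 in TSR and 105.4 to 189.7 in control livers and differed by 0.55 ± 0.16 (adjusted p = 0.0109). Terc no longer passed without the 5 set-apart arrays (adjusted p = 0.0519). Rny1 lay below the filter on the mean signal and was not tested. The highest Rny3 value, 4686, came from the array with pancreatic transcripts.

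Malat1, a long RNA held in the nucleus, rose by 0.36 ± 0.08 (adjusted p = 0.00317). It ranged from 1987 to 3573 in TSR and from 1593 to 2840 in control livers, and in the 5 set-apart arrays it lay between 2789 and 3573, above each of the 8 other control arrays (1593 to 2123). Snhg1, a host transcript of small nucleolar RNAs, rose by 1.30 ± 0.22 at 1 of its 2 tested probe sets (10461156, adjusted p = 0.000247) and differed by 0.08 at the other (adjusted p = 0.634). Gas5, another such host, rose at 1 of 3 (0.45 ± 0.10, adjusted p = 0.00198), and Snhg5 by 0.15 ± 0.05 (adjusted p = 0.0438). Probe sets of 1 host gene thus disagreed. Meg3, an imprinted long RNA, differed by 0.08 ± 0.10 (adjusted p = 0.529).

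**Figure D4:**
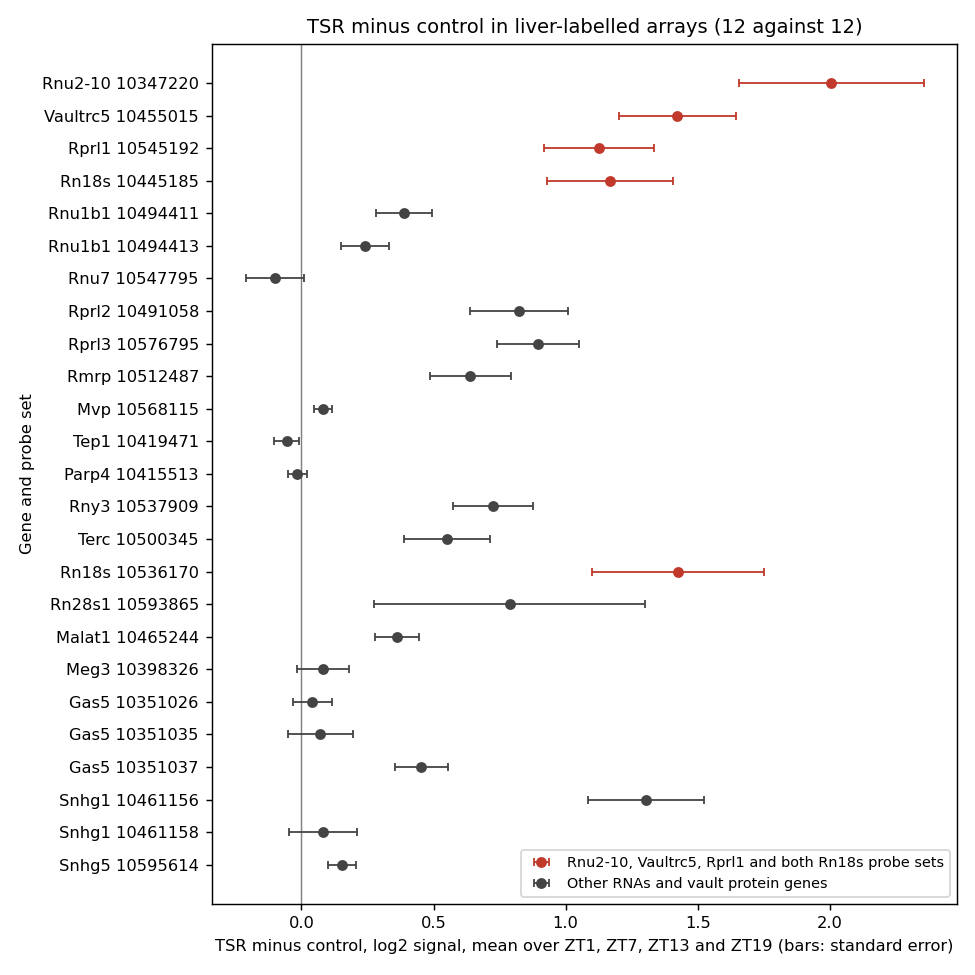
TSR minus control on the log2 signal scale, averaged over the 4 time points, for each tested probe set of the structural and non-coding RNAs and the vault protein genes in liver arrays (points, with SE as bars). The 4 chosen RNAs and the second Rn18s probe set, in red, lie between 1.12 and 2.01, and Mvp, Tep1 and Parp4 lie within 0.08 of 0.

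The genes that make or bind these RNAs had median differences between -0.07 and 0.20. Proteins named here stand for the transcripts of their genes, and protein was not measured. Of 19 tested proteins of the U2 particle 3 rose and 1 fell, with a median of 0.02. Sf3b6, which contacts the branch site, rose by 0.34 ± 0.07 (adjusted p = 0.00206), U2af1, which reads the end of the intron, rose by 0.24 ± 0.06 (adjusted p = 0.00427), and Sf3a1 fell by 0.19 (adjusted p = 0.0397). Among 7 Sm core proteins, the ring around spliceosomal RNAs, 5 rose, with a median of 0.20, and Snrpb rose most clearly, by 0.41 ± 0.07 (adjusted p = 0.000424). Of 9 proteins of RNase P and RNase MRP 2 rose, Rpp21 by 0.18 and Pop5 by 0.17 (adjusted p = 0.0319 and 0.0376), with a median of 0.06, and without the 5 set-apart arrays neither passed. Where each array was centred on its median, 1 of the Sm and 1 of the U2 proteins rose, 3 U2 proteins fell, and none of the RNase P proteins rose.

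Of 18 tested genes of RNA polymerase III and its factors none rose and 1 fell, Gtf3c2 (by 0.11, adjusted p = 0.0485), with a median of -0.03. Of 20 genes of small nuclear RNA transcription and end processing 2 rose and 5 fell, among them Ints12 and Ints9 of the Integrator complex, which fell by 0.24 (adjusted p = 0.000976) and 0.25 (adjusted p = 0.00253). Of 11 genes of RNA polymerase I 2 rose, Polr1c by 0.29 (adjusted p = 0.000583) and Taf1d by 0.32 (adjusted p = 0.00616). Taf1d hosts small nucleolar RNAs in its introns. Of 29 genes of small-subunit ribosomal RNA processing 6 rose and 3 fell, with a median of 0.04. Nhp2 and Nop10, proteins of the pseudouridylation particles, rose by 0.28 (adjusted p = 0.00140) and 0.35 (adjusted p = 0.00341), and Nop14, a factor of the small-subunit precursor, fell by 0.18 (adjusted p = 0.00867). These are counts to be read beside the 16% of all probe sets that rose and the 12.2% that fell, with no test of the lists.

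Over the 24 liver arrays the probe sets most like Vaultrc5 and Rprl1 were largely those of ribosomal protein genes. Vaultrc5 was most like Rps12 (Pearson r = 0.99 and 0.98 at 2 probe sets) and Rpl7a (0.98 and 0.98), and Rprl1 was most like Rprl3 (0.98) and Rpl11 (0.97). Over 210 probe sets of 72 ribosomal protein genes the median r was 0.72 with Rnu2-10, 0.77 with Vaultrc5 and 0.78 with Rprl1, against 0.04 to 0.06 over all probe sets tested, and 0.21 with Rn18s. Rn18s was most like its second probe set (0.99) and then Ugt2b38, a glucuronosyltransferase gene (0.91). These values describe 24 arrays that share the treatment and the set-apart arrays.

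The small nucleolar RNAs, which guide the modification of ribosomal RNA and mostly lie in introns of host genes, were taken as a class by symbol after the liver values were known. Of 20 tested probe sets with distinct values 16 rose and none fell, with a median of 0.69, against 16% of all probe sets rising. In the fit without the 5 set-apart arrays 12 rose, against 15.7% of all. Snord33, which lies in an intron of Rpl13a, rose by 1.22 ± 0.15 (adjusted p = 4.17e-05), and Snora3 rose by 0.86 ± 0.13 (adjusted p = 0.000127). The median log2 signal of the class was 7.39 to 8.83 in TSR arrays and 6.87 to 7.36 in control arrays, so the ranges nearly met. Of single probe sets 0.187% had all 12 TSR arrays above all 12 control arrays. No such share is given for class medians, so nothing is read from this. It was 7.15 to 7.39 in the 5 set-apart arrays, which overlapped with the 8 other control arrays (6.87 to 7.32) and lay below the 11 other TSR arrays (7.53 to 8.83). Ribosomal protein genes rose at 164 of 206 probe sets, with a median difference of 0.28 over the class, and at 136 of 206 without the 5 set-apart arrays, with a median of 0.23, against the same shares of all probe sets.

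Values that bear on the RNA preparation moved with these results, and their part in the results was not tested. Total RNA was extracted with Trizol, and the sources used here do not give RNA quality, a step that removes ribosomal RNA, or the days of extraction. The median signal of all probe sets was 89.0 to 108.8 in TSR and 84.5 to 100.9 in control liver arrays. The ranges overlapped and were higher in TSR at both ends, and these are medians of signals already normalized by the authors. Of 9 hepatocyte markers 5 rose by 0.15 to 0.22, and of 3 tested erythroid markers 2 rose, Hbb-b1 by 0.34 and Hba-a1 by 0.29. Over all probe sets tested 16% rose, a share that depended on scaling. Of 9 tested Kupffer cell and macrophage markers 1 rose, and of 6 tested pancreatic markers none did (limma, adjusted p under 0.05). The 8 mesothelial markers all lay below the filter on the mean signal and were not tested. Their summed signal was 709 to 873 in TSR and 443 to 508 in control livers at ZT7, and 680 to 827 in TSR and 484 to 579 in control livers at ZT19. At ZT1 it was 513 to 676 in TSR and 622 to 652 in control livers, and at ZT13 it was 667 to 746 in TSR and 558 to 677 in control livers. The mesothelial sums were thus apart at ZT7 and ZT19, and they overlapped at ZT1 and ZT13. Rnu2-10, Vaultrc5 and Rprl1 were apart at ZT7, ZT13 and ZT19, and Rnu2-10 was apart at ZT1 too. Of all probe sets tested, 22.1% at ZT7 and 23.9% at ZT19 had every TSR array above every control array. The median of ribosomal protein genes was 10.09 to 10.20 in the 5 set-apart arrays, 10.60 to 10.90 in the 11 other TSR and 10.33 to 10.76 in the 8 other control arrays. In the 5 set-apart arrays Vaultrc5, Rprl2 and Rmrp were thus below all other arrays while Rn18s was at 10949 to 12931, Rn28s1 at 5605 to 8279 and Malat1 at 2789 to 3573. With these arrays left out, the differences of the 4 RNAs lay between 1.18 and 1.76 on the log2 scale.

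The arrays labelled WAT were a further set in which the same probe sets could be tested. The label goes against their marker genes. Adipoq, the adipocyte hormone adiponectin, had a signal of 12.6 to 33.1 in the 24 WAT-labelled arrays and 48.0 to 88.3 in liver arrays. In 17 of the 24, hepatocyte markers had a median log2 signal of 12.63 to 13.08, near that of liver. In the other 7 they were at 4.55 to 9.50, and neural markers were at 10.32 to 10.63, against 4.91 to 7.43 in the 17. These 7 were TSR ZT1 replicate 1, TSR ZT13 replicate 2, TSR ZT19 replicate 3, control ZT7 replicate 3 and all control ZT19 arrays. The 4 control arrays among them carry the same time point and replicate labels as the 4 set-apart control arrays of liver, while none of the 3 TSR arrays matches the set-apart TSR array. Of the 17, 16 resembled most a liver array of the same treatment, and 7 the liver array of the same label (r between 0.36 and 0.81 over 14407 probe sets). Values in the 17 are thus not shown to be independent of the liver values that chose the 4 RNAs, and both sets may come from the same mice. The labels number the TSR arrays of this set 25 to 36 and its control arrays 49 to 60, so that here too numbering and treatment cannot be told apart.

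Over all 24 WAT-labelled arrays none of the 4 RNAs passed the test. Rnu2-10 averaged 264.5 ± 183.6 in TSR and 167.0 ± 148.7 in control arrays (SD, n = 12 each). Its log2 difference was 0.65 ± 0.27 (SE, limma adjusted p = 0.784). Vaultrc5 differed by 0.74 ± 0.55, Rprl1 by 0.30 ± 0.25 and Rn18s by 0.45 ± 0.26 (adjusted p = 0.924 each). At an unadjusted p under 0.05 only Rnu2-10 of the 4 passed with limma, and none passed with the methods' t-test. The whole set held few calls, with 0.0139% of 14407 probe sets higher and 0% lower in TSR arrays, and by time point 0% were called at ZT1, ZT7 and ZT13 and 0.00694% at ZT19.

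In Vaultrc5 and Rn18s the 7 arrays with neural transcripts lay apart from the other arrays of their treatment, and in Rnu2-10 and Rprl1 only the neural TSR arrays did. Vaultrc5 was 82.3 to 211.4 in the 3 neural TSR arrays and 1025 to 2883 in the 9 others, and it was 89.3 to 510.3 in the 4 neural control arrays and 532.1 to 1625 in the 8 others. Rprl1 was 44.8 to 46.0 in the neural TSR arrays and 87.9 to 247.2 in the other TSR arrays. Among control arrays Rprl1 overlapped, at 68.4 to 123.7 in the neural and 76.0 to 123.4 in the other arrays. Rnu2-10 was 76.2 to 110.5 in the neural TSR arrays and 151.0 to 671.7 in the other TSR arrays. Among control arrays Rnu2-10 overlapped, at 113.2 to 195.7 in the neural and 66.2 to 619.7 in the other arrays. Rn18s went the other way, at 12330 to 13376 in neural TSR arrays and 4514 to 10468 in the other TSR arrays. At ZT7, where no TSR array was neural, Vaultrc5 was 2246, 2173 and 2883 in TSR arrays, against 1138, 1625 and 510.3 in control arrays. Rprl1 was 247.2, 177.3 and 213.3 there, against 111.9, 123.4 and 69.5 in control arrays. Of these control arrays replicate 3 is neural, and replicate 2, the highest of the 3 in Vaultrc5 and Rprl1, had pancreatic markers summing to 2539, against at most 601 in the other WAT-labelled arrays, and neural markers at a median log2 signal of 7.43. Both groups were apart for these RNAs at ZT7, as in 10.5% of all probe sets. Rn18s was apart upward at ZT1, as were 6.95%, and apart downward at ZT19, as were 6.94%, where all control arrays were neural.

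**Figure D5:**
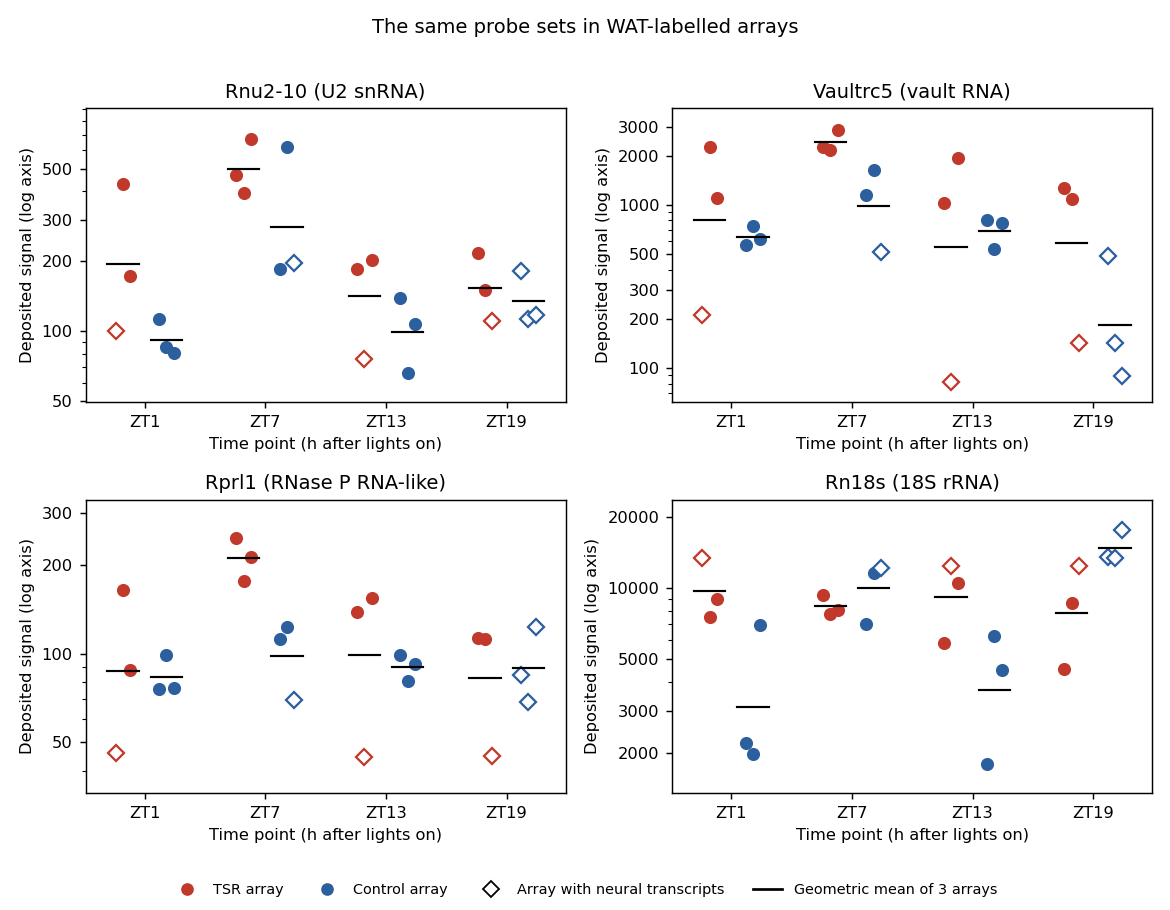
Deposited signal (log axis) of the same 4 probe sets in the 24 WAT-labelled arrays by time point, with TSR in red left of control in blue, open diamonds for the 7 arrays with neural transcripts and black lines for geometric means of 3 arrays. The diamonds lie low in Vaultrc5, down to 82.3, and high in Rn18s, up to 17533.

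Without the 7 neural arrays, a choice made after the values were seen that leaves no control array at ZT19, the differences were larger. Vaultrc5 rose by 1.05 ± 0.21 (SE, limma adjusted p = 0.0348) and Rprl1 by 0.69 ± 0.14 (adjusted p = 0.0424). Rnu2-10 differed by 1.03 ± 0.32 (adjusted p = 0.101) and Rn18s by 0.79 ± 0.37 (adjusted p = 0.238). In this fit 0.729% of all probe sets rose and 0.125% fell. Rprl3 rose by 0.67 ± 0.12 (adjusted p = 0.0348) and Rprl2 by 0.70 ± 0.14 (adjusted p = 0.0440), while Rmrp differed by 0.46 ± 0.14 (adjusted p = 0.108), Rny3 by 0.30 (adjusted p = 0.395) and Terc by -0.25 (adjusted p = 0.682).

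Differences between time points were tested for the other RNAs only. Over all probe sets the TSR effect in liver differed between time points in 19.7% (limma F-test, adjusted p under 0.05). Among them were 7 of the 20 tested probe sets of other non-coding RNAs and vault protein genes.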

How the data were processed

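The authors hybridized liver and WAT total RNA to Affymetrix Mouse Gene 1.0 ST arrays, 3 mice per group, and normalized the signals with d-Chip. Neither its version and settings nor joint or separate handling of the tissues is stated. The deposited tables hold a normalized intensity on a linear scale for 28815 probe sets and, per the file headers, a detection p-value from the authors' processing, which served only to count arrays with p of 0.05 or less.

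Symbols were taken from the GenBank entries in the tables, updated where a current symbol was known, which named 24261 probe sets. The 4 RNAs and the gene lists were chosen with earlier results of these data known. For each RNA the probe set with the highest mean liver signal was used. Signals were set to at least 1 and log2-transformed, and limma 3.58.1 in R 4.3.3 (lmFit and eBayes) was fitted to 8 group means per tissue, with no covariate, after tests on simulated data. P values were adjusted by Benjamini-Hochberg over the 14407 probe sets with a mean signal above the median (97.37 in liver, 87.85 in WAT). For liver differences of the 4 RNAs the SE is that of the spread within groups, with no p. List genes were represented by their brightest probe set. The text names the probe sets of the RNA lists, up to 3 genes with the smallest adjusted p per other list, and up to 5 probe sets most correlated with each RNA, of which those for Rnu2-10 are not reported here.

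The number of arrays, 3 separate mice per group, limits the precision. Alternatives were quantile normalization, centring, a pseudocount of 16, other filters, the replicate block, an intensity trend, the methods' t-test, and leaving out arrays. No sequence of the 4 RNAs was used here.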

Additional observations from a re-analysis of the deposited data

Results flagged for a closer look

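In 7 probe sets of other non-coding RNAs and vault protein genes the TSR effect in liver differed between time points, which 19.7% of all probe sets tested also did (limma F-test on the interaction, Benjamini-Hochberg adjusted p under 0.05). Rmrp, the RNA of RNase MRP, differed from control by -0.32 at ZT1, followed by 1.03, 0.34 and 1.51 at the later time points on the log2 scale (adjusted p = 0.02035). Malat1 differed by 0.81 at ZT1, followed by 0.09, 0.57 and -0.03 (adjusted p = 0.03459), and Parp4 by 0.25, -0.20, -0.06 and -0.06 (adjusted p = 0.04709). Among host transcripts of small nucleolar RNAs, Gas5 differed by 1.42, -1.22, -0.01 and 0.10 at probe set 10351035 (adjusted p = 0.001518) and by 0.97, -0.26, 0.46 and 0.64 at probe set 10351037 (adjusted p = 0.0229). Snhg1 differed by 1.02, -0.93, 0.12 and 0.11 at probe set 10461158 (adjusted p = 0.01113) and Snhg5 by 0.38, 0.02, 0.36 and -0.14 (adjusted p = 0.04234). All 3 control arrays of ZT19 and 1 control array of ZT7 are set-apart arrays, and so is 1 TSR array of ZT1. Their part in these differences between time points was not tested.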

How the results depend on the processing

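In liver the mean differences of Rnu2-10, Vaultrc5, Rprl1 and Rn18s kept their direction under every alternative run. Leaving out 1 array at a time gave 1.73 to 2.16, 1.30 to 1.54, 1.04 to 1.26 and 1.03 to 1.27 in that order. Of the RNase P and RNase MRP RNAs 2 or 3 of 3 rose under all 36 alternatives. Of the list genes 29 rose and 10 fell, where 16% of all probe sets rose and 12.2% fell. The share of the list genes tested is not given here, so nothing is read from these counts. Those rising were 19 after quantile normalization, 15 with arrays centred on their median, 16 above the upper quartile and 16 with the methods' t-test. Those falling were 16 with centring, 5 with no filter, 3 with the t-test and 6 without the 5 set-apart arrays. Over all probe sets 2307 rose and 1759 fell. Rising were 1673 after quantile normalization, 933 with centring, 1612 above the upper quartile, where fewer were tested, and 1385 with the t-test. Falling were 2523 with centring, 1213 with no filter, where more were tested, 705 with the t-test and 1504 without the 5 set-apart arrays. Leaving out 1 array gave 21 to 30 list genes rising and 5 to 13 falling (5 without control ZT19 replicate 1 or TSR ZT7 replicate 3, and 6 without control ZT7 replicate 1, control ZT13 replicate 2 or TSR ZT1 replicate 1 or 2), and 1896 to 2749 probe sets rising and 1407 to 2016 falling.

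In WAT-labelled arrays 2 probe sets rose and none fell. Quantile normalization, centring, the replicate block and no filter left 0 rising, and the upper-quartile filter, under which Rnu2-10 and Rprl1 were not tested, left 1 falling. Without the 7 neural arrays 105 rose and 18 fell, 2 list genes rose, and Vaultrc5 (1.05) and Rprl1 (0.69) passed. The arrays left in that fit are not shown to be independent of the liver values that chose the 4 RNAs. Leaving out 1 array gave 0 to 3 rising and 0 to 1 falling, with 0 list genes either way. The 4 RNAs then differed by 0.51 to 0.79, 0.51 to 1.08, 0.18 to 0.44 and 0.31 to 0.59, in the order above.

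Replicate numbers did not pair the arrays: same-numbered TSR and control arrays deviated together at r = -0.168 to 0.315 in 12 liver pairs, 3 of them best with their own number, and at -0.279 to 0.596 in 12 WAT pairs, 4 of them. With the replicate block the liver differences were 2.01, 1.42, 1.12 and 1.17, with 31 list genes rising and 9 falling and 2389 probe sets rising and 1814 falling. The causes of these changes were not tested. Having 3 arrays per group, and 5 set-apart arrays that remove control ZT19, limit what single time points show.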
